A study of Mus musculus with 30 samples.

Results

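The effect of losing myotubularin on gene expression was compared between the heart and the gastrocnemius, a skeletal muscle of the calf, of male mice at 5 weeks of age. The quantity reported is a difference of differences. The log2 fold change of Mtm1-/y against wild type (WT) in the gastrocnemius was subtracted from the same log2 fold change in the heart, gene by gene, in one fit. A positive tissue difference therefore means that the genotype effect was higher in the heart, and a negative one that it was lower in the heart. The comparison used 16 of the 30 libraries of the series, with 4 libraries each of WT gastrocnemius, Mtm1-/y gastrocnemius, WT heart and Mtm1-/y heart, and it covered every gene that passed a filter on low counts. The Mtm1-/y mice carried a constitutive knockout of the X-linked Mtm1 gene, which no Cre line confined to muscle, and the WT mice were their littermates on the same pure 129Pas background. None of the groups received a treatment. Each library held poly(A) RNA of dissected, snap-frozen tissue, from 4 mice per group by the study's methods. The labels give a replicate number but do not say whether a heart and a gastrocnemius came from 1 mouse. The study asked how the effects of the disease differ between organs.

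Myotubularin is a lipid phosphatase that removes the 3-phosphate from phosphatidylinositol 3-phosphate (PtdIns3P) on endosomal membranes. Its loss in humans causes X-linked myotubular myopathy, a congenital disease in which skeletal muscle fibres are small and rounded, carry central nuclei and have disorganised triads, the membrane junctions that couple electrical excitation to calcium release. Cardiac muscle expresses the same gene and builds related membrane junctions, called dyads.

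The 16 libraries held 25244426 to 38588917 reads counted in genes. Levels are given below as CPM, the reads of a gene scaled to a common library size, after scaling by the trimmed mean of M values (TMM), with scaling factors of 0.7497 to 1.23. Myh6, the cardiac myosin heavy chain, was at 18545 to 24391 CPM in heart and 53 to 390.4 CPM in gastrocnemius, and Myh4, of fast skeletal fibres, at 26717 to 73493 CPM in gastrocnemius and 0.302 to 1.74 CPM in heart. Libraries within a group were not alike in RNA of other cells. The 14 atrial cardiomyocyte markers summed to 811.5 to 29490 CPM in WT heart and 250.3 to 5678 CPM in Mtm1-/y heart. The atrial hormone gene Nppa was at 1622, 587, 2156 and 16774 CPM in WT heart and 129.6, 2731, 561 and 135 CPM in Mtm1-/y heart. It was at 0 in all 4 WT gastrocnemius libraries, where 3 counts would have been 0.0945 to 0.125 CPM, and at 0.0684 to 0.376 CPM in Mtm1-/y gastrocnemius. The liver gene Alb, for serum albumin, was at 69.1, 34.9, 55.3 and 20.5 CPM in WT gastrocnemius and 6.81, 4.48, 38.6 and 2.7 CPM in Mtm1-/y gastrocnemius, and at 22, 0.845, 2.28 and 2.45 CPM in WT heart and 89.9, 41.1, 24.9 and 32.4 CPM in Mtm1-/y heart. WT heart replicate 4 had the highest atrial level of all libraries, and Mtm1-/y heart replicate 2 the highest of its group. In RNA of whole tissue, fewer cells of a type and less RNA per cell cannot be told apart.

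**Figure D1:**
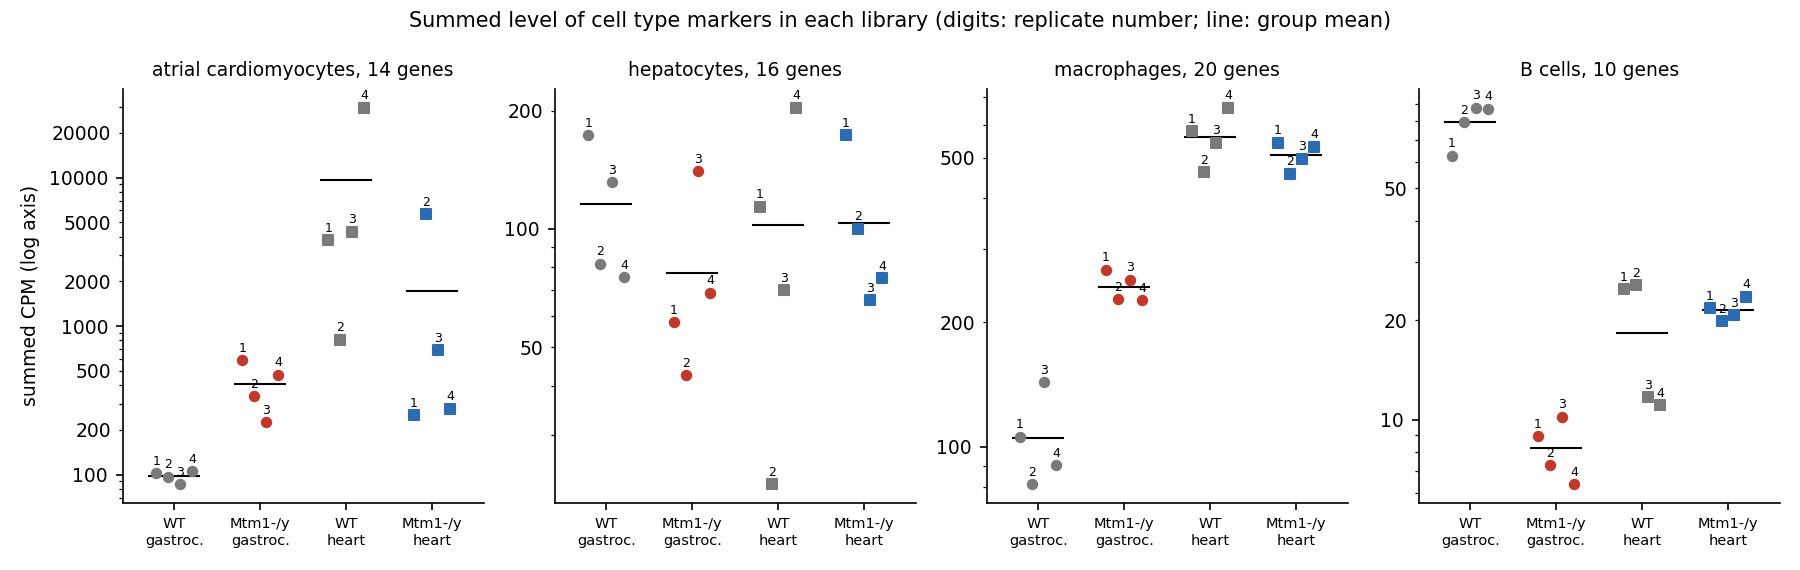
Summed level, in CPM on a log axis, of the markers of atrial cardiomyocytes, hepatocytes, macrophages and B cells in each of the 16 libraries, with circles for gastrocnemius, squares for heart, the replicate number above each point and a line at the group mean. The atrial sum of WT heart replicate 4 is 29490 CPM, and the macrophage sums of the 4 Mtm1-/y gastrocnemius libraries, from 226.5 CPM, all lie above those of WT gastrocnemius, which reach 143.2 CPM.

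Mtm1 itself fell in both tissues. It was at 21.8, 21.8, 23.2 and 21.6 CPM in WT gastrocnemius and 4.5, 5.51, 4.96 and 6.01 CPM in Mtm1-/y gastrocnemius. In the heart, the values were 22, 23.5, 27.9 and 22.1 CPM in WT heart and 4.1, 4.26, 3.63 and 3.99 CPM in Mtm1-/y heart. The genotypes did not overlap in either tissue. The log2 fold change was -2.08 in gastrocnemius (adjusted p = 2.09e-08) and -2.58 in heart (adjusted p = 1.19e-09), and the tissue difference was -0.50 (SE 0.14, adjusted p = 0.0228), which does not reach the size threshold of 1 on the log2 scale. The files give 1 count per gene and do not resolve the remaining reads into exons.

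Of the 16627 genes tested, 1286 (7.73%) had a genotype effect that differed between the tissues at an adjusted p under 0.05 with a difference of more than 1 on the log2 scale. These genes are called different below. For 315 genes (1.89%) the heart effect was higher, and for 971 genes (5.84%) it was lower. At the adjusted p alone, with no size threshold, the numbers were 1652 genes (9.94%) higher and 1645 genes (9.89%) lower. In the same fit, 1145 genes (6.89%) differed between genotypes in the gastrocnemius, 850 up (5.11%) and 295 down (1.77%). At the adjusted p alone, 4302 genes (25.9%) differed there, 2143 up (12.9%) and 2159 down, and a gene is said below to have risen or fallen where it passed that adjusted p. In the heart 1 gene differed (0.00601%), which was Mtm1. The study, which used DESeq2, reported more genes changed in the heart at these thresholds. Only edgeR was used here for the effect within the heart, so the count is that of 1 tool. The heart values below are given as measured and none is called a change. Of the 1286 genes called different, 999 (77.7%) had the larger of both effects in the gastrocnemius. Over all genes tested the effects were also larger there, with a median size of 0.27 against 0.15 in heart. The share of all genes with the larger effect in gastrocnemius was not counted, so the 77.7% is only a description.

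The genes with a lower heart effect had a median log2 fold change of 1.25 in gastrocnemius and -0.43 in heart. Those with a higher heart effect had medians of -1.24 in gastrocnemius and 0.39 in heart. Over all genes tested, the medians were 0.02 in gastrocnemius, 0.00 in heart and -0.03 for the difference. Opposite signs, each over 0.5 in size, were measured for 385 of the 971 lower genes and 120 of the 315 higher genes. A call needs a large difference between the tissues, which in itself favours opposite signs and opposite medians. The share of opposite signs over all genes tested was not counted, so these numbers are a description of the selected genes. Many of the called genes were low in one tissue: 336 had a mean under 1 CPM in both heart groups and 272 a mean under 1 CPM in both gastrocnemius groups. With a requirement of 1 CPM in each tissue, 787 of 12294 genes were called, 174 higher and 613 lower.

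**Figure D2:**
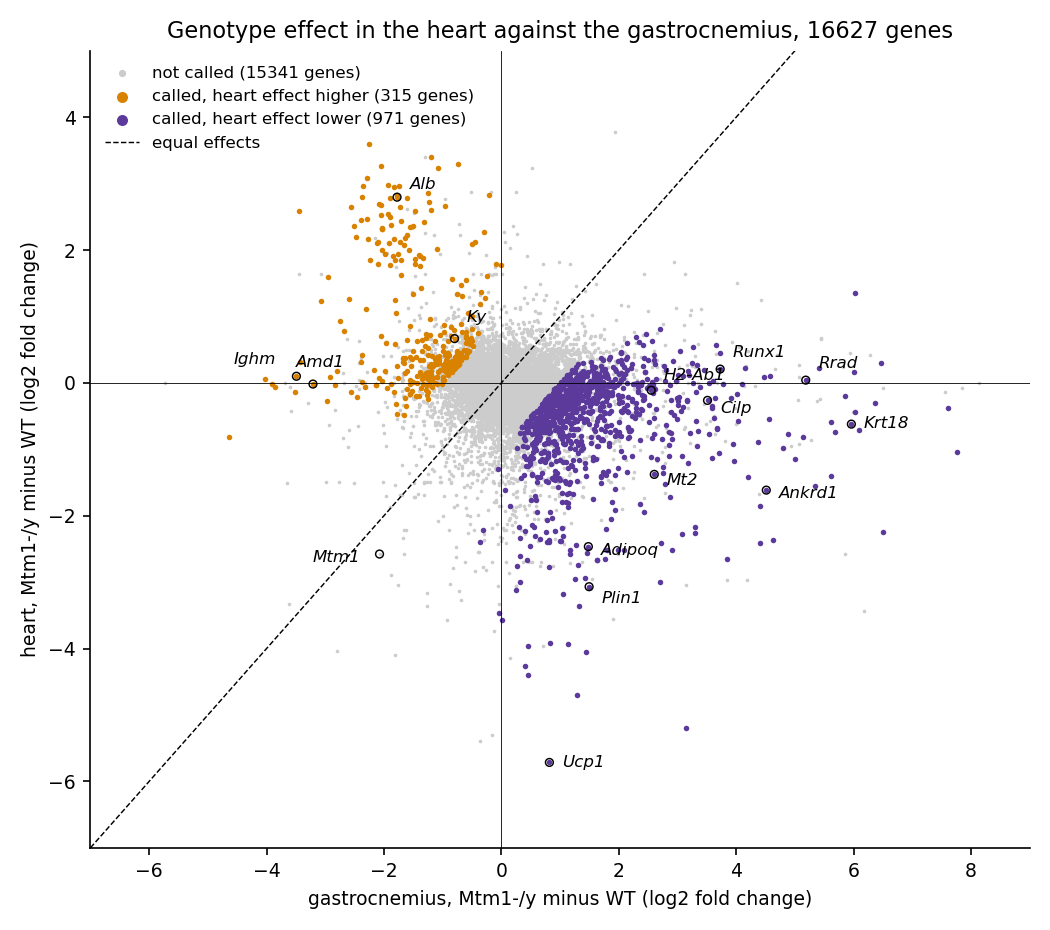
Log2 fold change of Mtm1-/y against WT in the gastrocnemius (horizontal axis) and in the heart (vertical axis) for each gene tested, 2 genes lying outside the axes. Purple points are the 971 genes called with a lower heart effect, orange points the 315 called with a higher one, and the dashed line marks equal effects. Mtm1 lies close to that line at -2.08 and -2.58, most purple points lie along the horizontal axis to the right, and some orange points, Alb among them, lie high in the heart.

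Several settings moved these counts. Scaling by library totals alone, in place of TMM, moved the median difference of all genes from -0.03 to -0.44 and the median gastrocnemius effect to 0.36. It then called 172 genes higher and 2410 lower, so that 93.3% of calls were lower against 75.5% with TMM. Values below are with TMM, and a list's median is read against that of all genes. With a score of 21 white adipocyte markers as a covariate, 38 genes were called, 11 higher and 27 lower. With a score of atrial markers, centred within each tissue, 548 were called. Without WT heart replicate 4, 977 genes were called, 242 higher and 735 lower.

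The gene lists that follow are described by counts of called genes, to be read against 1.89% of all genes with a higher and 5.84% with a lower heart effect, and by medians. Counts at an unadjusted p under 0.05 by edgeR are to be read against 5767 of all 16627 genes tested. The plot of list medians shows both tissues together. With all libraries, 45 of the lists had 1 or more calls, and 10 of these had any with the adipocyte score as a covariate. The lower calls were then 6 for MHC class II presentation, 4 for tumour necrosis factor and NF-kB signalling, and 1 each for the matricellular, crosslinking, chemokine, lysosome, p53 and macrophage lists, and the higher calls were 2 for polyamine metabolism and 1 for B cells. No gene was called with that covariate in the denervation, embryonic sarcomere, collagen, complement, myostatin, hepatocyte or white adipocyte lists. The median difference went from -1.26 to -1.78 for denervation and from -2.23 to -2.25 for MHC class II. It went from -1.24 to -1.20 for the matricellular list, -1.30 to -0.81 for complement and -1.26 to -0.15 for white adipocytes. The score was not centred within tissue, and its own markers had medians of 0.39 in gastrocnemius and -0.98 in heart. Why calls were lost was not tested. With the atrial score of the heart libraries as a covariate, the lower calls were 8 for the matricellular list, 7 for complement and 5 for myostatin signalling. They were 5 for p53 targets, 4 for crosslinking, 3 for the lysosome and 2 for fibroblasts. Collagens, the integrated stress response and brown adipocytes had 1 each, and the collagen median difference moved from -0.91 to -0.45. Lists that moved less had 8 lower calls for MHC class II and 11 each for macrophages, chemokines and NF-kB signalling. The denervation and embryonic sarcomere lists had 7 each, and small heat shock proteins 4.

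**Figure D3:**
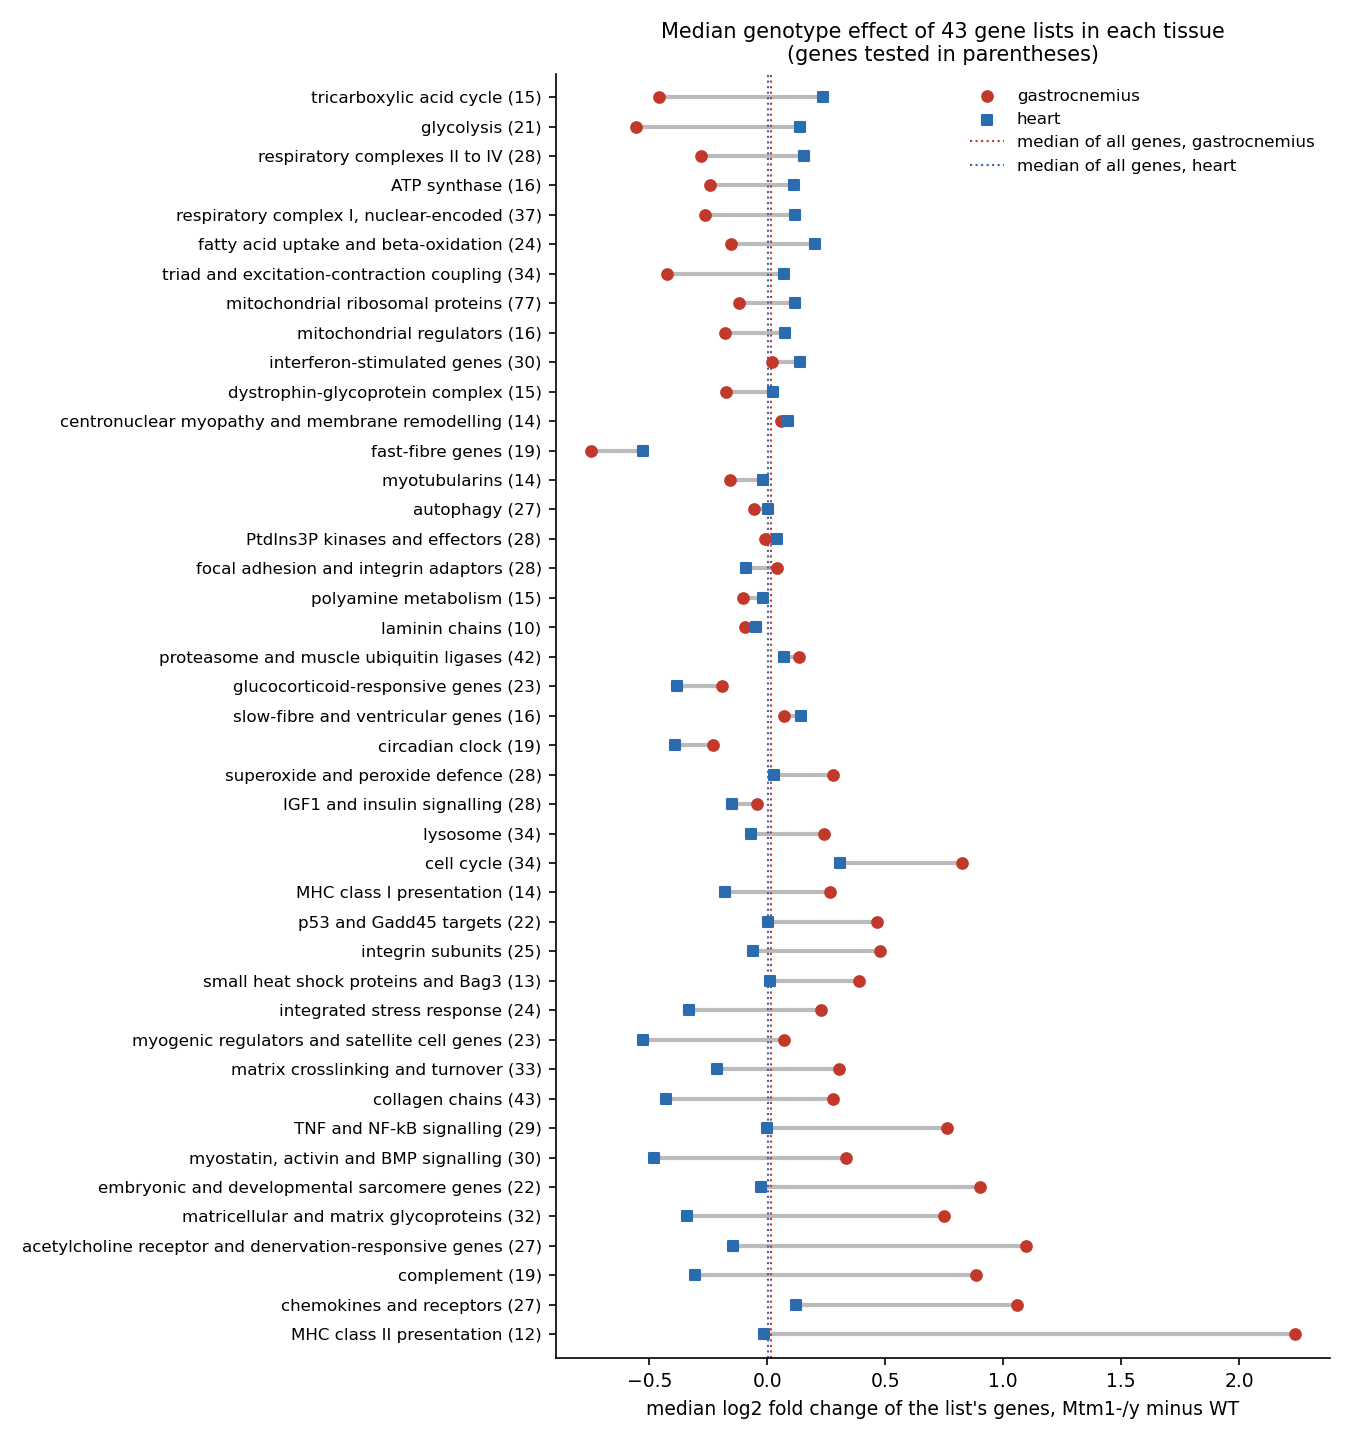
Median log2 fold change, Mtm1-/y minus WT, of the genes of 43 lists in gastrocnemius (red circles) and heart (blue squares), joined by a line and ordered by the median difference, with the number of genes tested in parentheses and dotted lines at the medians of all genes. MHC class II presentation lies at 2.24 in gastrocnemius and -0.01 in heart, and the tricarboxylic acid cycle at -0.46 and 0.24.

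Skeletal muscle is known to switch on a set of genes after loss of nerve input. Of 27 acetylcholine receptor and denervation-responsive genes tested, 8 had a lower heart effect and none a higher one (median difference -1.26, with 1.1 in gastrocnemius and -0.14 in heart). Runx1, a transcription factor induced by denervation, was at 3.15, 2.54, 2.8 and 1.56 CPM in WT gastrocnemius and 51.4, 33.1, 32.7 and 16.5 CPM in Mtm1-/y gastrocnemius. Heart libraries held 2.39, 2.14, 1.91 and 1.67 CPM in WT heart and 1.3, 2.3, 2.37 and 3.38 CPM in Mtm1-/y heart. The gastrocnemius groups did not overlap while the heart groups did, and the tissue difference was -3.52 (SE 0.46, adjusted p = 0.000294). Gadd45a, a stress gene with a role in denervation atrophy, was at 12.8 to 19 CPM in WT and 52.8 to 114 CPM in Mtm1-/y gastrocnemius and at 4.87 to 9.38 and 5.02 to 8.37 CPM in heart, a difference of -2.31 (SE 0.36, adjusted p = 0.000785). Ncam1, a cell adhesion molecule that spreads along denervated fibres, differed by -2.49 (SE 0.42, adjusted p = 0.00121). Ankrd1, Cdkn1a, Fbxo32 and Chrnb1 were also called. Fbxo32, a ubiquitin ligase of muscle atrophy, differed by -1.26 (SE 0.29, adjusted p = 0.00814), and it was the only gene called of 42 proteasome subunits and muscle ubiquitin ligases.

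Of 22 embryonic and developmental sarcomere and cytoskeletal genes, 8 had a lower heart effect and 1, the cardiac actin gene Actc1, a higher one (median -0.99). Krt18, a keratin of simple epithelia, was at 0.315, 0.209, 0.27 and 0.291 CPM in WT gastrocnemius and 30.5, 14.1, 14 and 10.5 CPM in Mtm1-/y gastrocnemius. Levels in the heart were 2.16, 1.21, 1.27 and 6.42 CPM in WT heart and 1.3, 3.17, 0.863 and 1.88 CPM in Mtm1-/y heart. It rose in every Mtm1-/y gastrocnemius library above every WT one, the heart groups overlapped, and the difference was -6.58 (SE 0.83, adjusted p = 0.000216). Its partner keratin Krt8 differed by -6.20 (SE 1.15, adjusted p = 0.00234). Csrp3, the muscle LIM protein of the Z-disc, was at 61.2 to 199 CPM in WT and 592 to 1165 CPM in Mtm1-/y gastrocnemius and at 1087 to 1242 and 1007 to 1217 CPM in heart, a difference of -2.41 (SE 0.39, adjusted p = 0.00107). Myh10, a non-muscle myosin, differed by -1.04 (SE 0.15, adjusted p = 0.000455), just past the threshold, and it was -0.97 without WT heart replicate 4, -0.97 without WT gastrocnemius replicate 3 and -0.99 without WT gastrocnemius replicate 4. Myh3, the embryonic myosin heavy chain, was at 10.2, 9.64, 8.14 and 10.9 CPM in WT gastrocnemius and 67, 113, 67.3 and 297 CPM in Mtm1-/y gastrocnemius. It rose in gastrocnemius (log2 fold change 3.81, adjusted p = 1.2e-05), but its heart levels were at most 0.111 CPM, and the tissue difference of -4.68 (SE 2.08, adjusted p = 0.123) did not pass the test.

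The largest negative differences included genes of muscle stress. Ankrd1, a titin-binding protein of the sarcomere, was at 3.53, 3.3, 7.77 and 2.51 CPM in WT gastrocnemius and 143, 62.1, 88.5 and 98.7 CPM in Mtm1-/y gastrocnemius. Its heart levels were 517, 592, 635 and 3213 CPM in WT heart and 175, 422, 582 and 439.8 CPM in Mtm1-/y heart. The gastrocnemius groups were far apart, while in the heart WT replicate 4 stood above all others and the groups overlapped. The difference was -6.13 (SE 0.85, adjusted p = 0.000417), and -5.05 (adjusted p = 8.54e-05) without that library. Rrad, a small GTPase that restrains calcium channels, was at 3.4, 3.59, 1.42 and 1.34 CPM in WT gastrocnemius and 139.5, 121, 58.1 and 34.9 CPM in Mtm1-/y gastrocnemius. Its heart levels, 68.7, 45.7, 52.1 and 97.3 CPM in WT heart and 70.3, 63, 88.6 and 49.6 CPM in Mtm1-/y heart, overlapped, and it differed by -5.14 (SE 0.60, adjusted p = 0.000119). Gdf5, a bone morphogenetic protein with a role in denervated muscle, was at 0.167 to 0.254 CPM in WT and 2.46 to 13.6 CPM in Mtm1-/y gastrocnemius, and under 0.4 CPM in every heart library, a difference of -5.94 (SE 0.75, adjusted p = 0.000221). Aldh3a1, an aldehyde dehydrogenase, differed by -7.02 (SE 1.05, adjusted p = 0.000652), with 11.8, 16.9, 2.01 and 12 CPM in Mtm1-/y gastrocnemius and at most 1.67 CPM elsewhere.

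Other large negative differences depended on single libraries or lost their calls when a library was left out. Lad1, a basement membrane anchor, was at 0.163, 0.137, 14.7 and 0.182 CPM in Mtm1-/y gastrocnemius, so that 1 library carried the difference of -6.05 (SE 1.93, adjusted p = 0.039), and without that library, replicate 3, it was -1.53 (adjusted p = 0.197). Dsp, the desmosomal protein desmoplakin, was at 1.9, 7.22, 135 and 10.4 CPM in Mtm1-/y gastrocnemius against 0.292 to 0.981 CPM in WT, and its difference of -5.84 (SE 1.36, adjusted p = 0.00868) became -3.27 without the same library. WT heart held 7.11 to 13.4 CPM of Lad1 and 786 to 1180.2 CPM of Dsp. Lad1 lost its call in 10 of the 16 fits that each left out 1 library (-1.53 to -6.45). Sln, for sarcolipin, an inhibitor of the calcium pump, was at 20.9, 15.1, 5.41 and 16.2 CPM in WT gastrocnemius and 485, 235, 137 and 369 CPM in Mtm1-/y gastrocnemius. In the heart, where it is an atrial gene, it was at 197, 9.97, 177 and 1092 CPM in WT heart and 0.635, 274, 0.108 and 2.01 CPM in Mtm1-/y heart, highest in WT replicate 4 and Mtm1-/y replicate 2 as Nppa was. Its difference of -6.82 (SE 2.24, adjusted p = 0.0432) was lost in 13 of the 16 fits that each left out 1 library (-5.30 to -13.05). The non-coding gene 5430419D17Rik, with the pattern 4.06, 1.55, 4.71 and 26.5 CPM in WT heart and 0.635, 5.37, 0.611 and 0.57 CPM in Mtm1-/y heart, differed by -6.99 (SE 2.16, adjusted p = 0.034) and lost its call in 8 of those fits (-5.57 to -8.67).

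**Figure D4:**
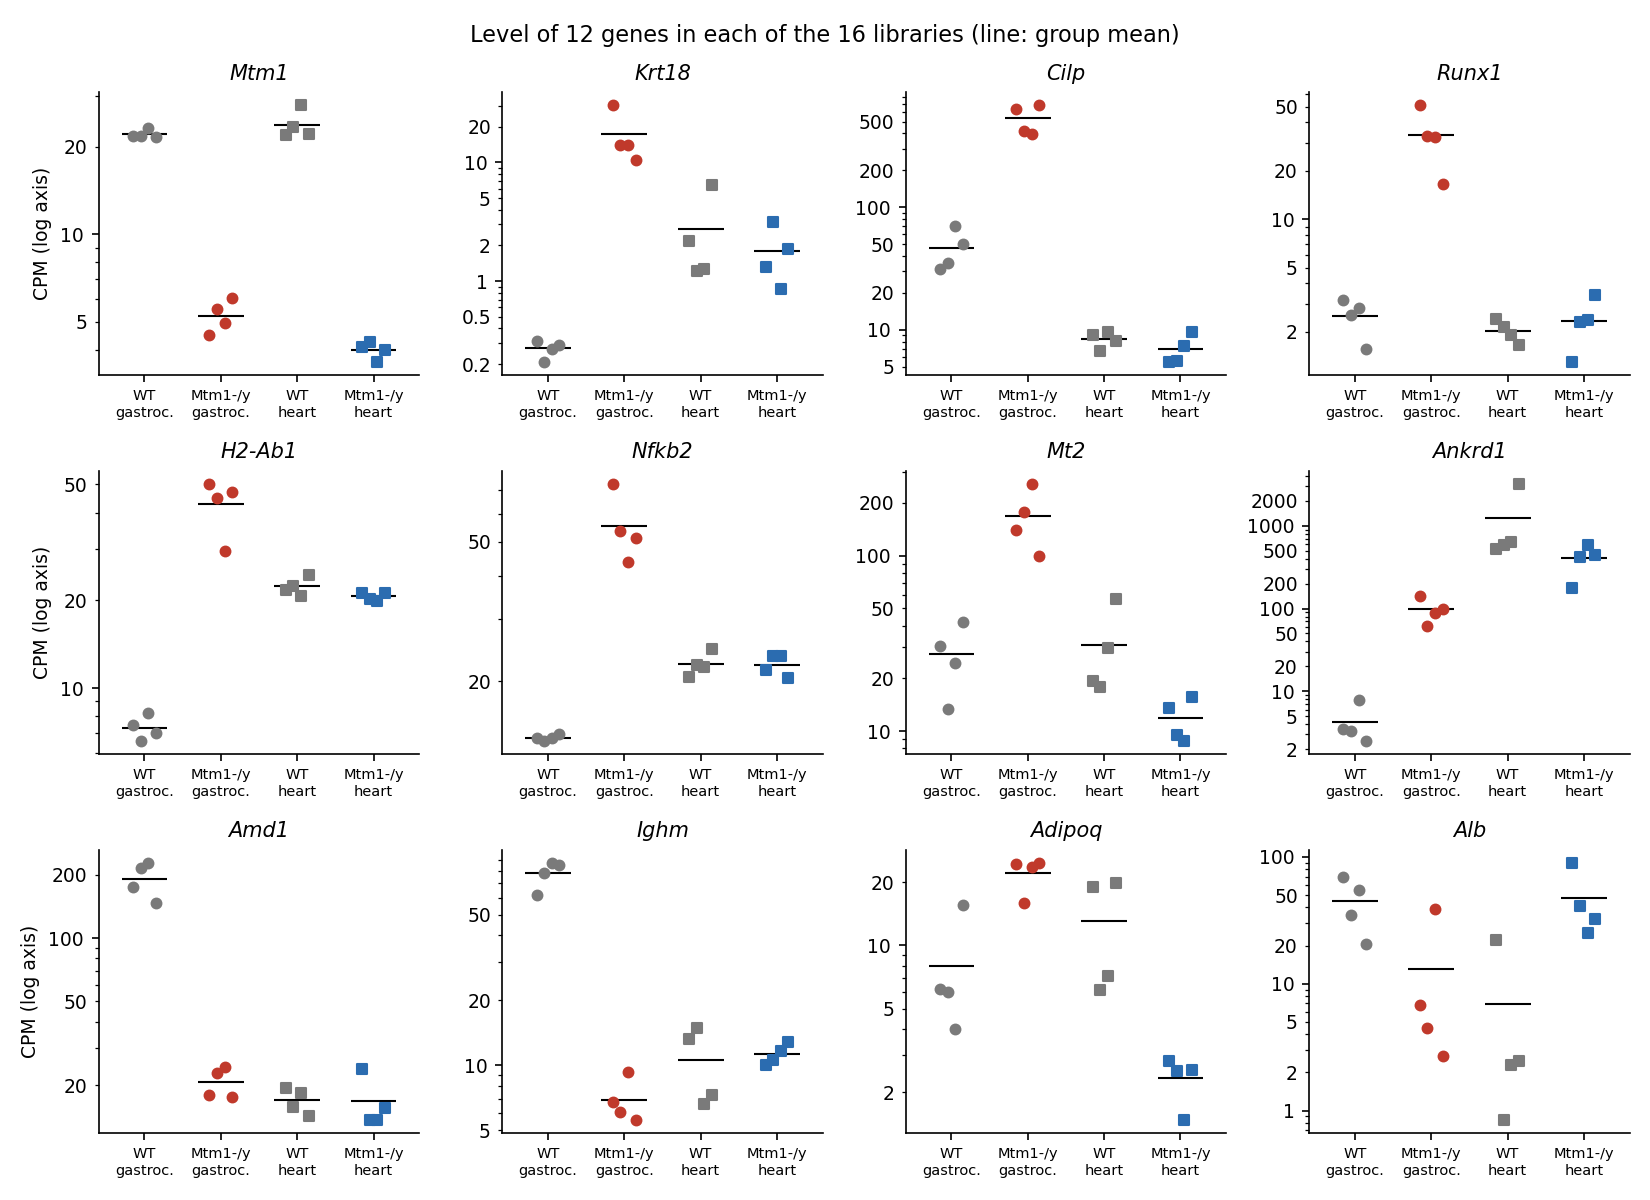
Level of 12 genes, in CPM on a log axis, in each library of WT gastrocnemius, Mtm1-/y gastrocnemius, WT heart and Mtm1-/y heart, with a line at the group mean of 4 libraries. Krt18, Cilp, Runx1, H2-Ab1 and Nfkb2 rise in the Mtm1-/y gastrocnemius while their heart groups overlap, Amd1 and Ighm fall there, and Mt2, Adipoq and Alb show genotypes that lie apart in the heart.

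Of 32 matricellular and matrix glycoprotein genes, 13 were called lower and none higher, with medians of 0.75 in gastrocnemius and -0.34 in heart. Collagen chains gave 7 of 43 lower (medians 0.28 and -0.43), laminin chains 1 of 10, and crosslinking and turnover enzymes 7 of 33 lower and 1 higher, the inhibitor Timp4. Cilp, a matrix protein of cartilage that binds growth factors, was at 31.1, 35.1, 70.5 and 49.9 CPM in WT gastrocnemius and 629, 422, 393 and 684 CPM in Mtm1-/y gastrocnemius. Heart levels were 9.11, 6.73, 9.54 and 8.04 CPM in WT heart and 5.46, 5.51, 7.3 and 9.55 CPM in Mtm1-/y heart. It rose in all 4 Mtm1-/y gastrocnemius libraries and the heart groups overlapped, a difference of -3.77 (SE 0.38, adjusted p = 3.15e-05). Postn, for periostin, a matrix protein of injured tissue, was at 28.7 to 70.5 CPM in WT and 177 to 409 CPM in Mtm1-/y gastrocnemius and at 89.5, 47, 89.5 and 164 CPM in WT and 70.8, 41.7, 50.2 and 69 CPM in Mtm1-/y heart, a difference of -3.64 (SE 0.52, adjusted p = 0.000509). Mgp, an inhibitor of calcification, differed by -2.72 (SE 0.47, adjusted p = 0.00142) and lumican, Lum, which orders collagen fibrils, by -1.39 (SE 0.24, adjusted p = 0.00161). Timp1, an inhibitor of metalloproteinases, was at 1.64, 2.13, 3.11 and 2.33 CPM in WT gastrocnemius and 28.5, 29.8, 25.1 and 10.3 CPM in Mtm1-/y gastrocnemius. It was at 4.65, 4.17, 5.38 and 8.4 CPM in WT heart and 3.5, 2.97, 3.78 and 3.48 CPM in Mtm1-/y heart. Its genotypes did not overlap in either tissue and lay in opposite directions, with a difference of -4.07 (SE 0.43, adjusted p = 5.38e-05).

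Among the collagens, Col8a1, a network-forming collagen of vessels, differed by -2.61 (SE 0.41, adjusted p = 0.000963), Col6a5 by -2.19 (SE 0.54, adjusted p = 0.0111) and Col28a1 by -2.46 (SE 0.62, adjusted p = 0.0135). Col5a2, a fibrillar collagen, differed by -1.11 (SE 0.25, adjusted p = 0.00661), but by -0.93 without WT heart replicate 4. Loxl1, which crosslinks elastin, differed by -1.60 (SE 0.30, adjusted p = 0.00267), and the metalloproteinases Mmp19 and Mmp12 by -1.54 (SE 0.27, adjusted p = 0.00173) and -3.54 (SE 0.86, adjusted p = 0.0107). WT heart replicate 4 was the highest WT heart library for Postn, Mgp, Lum and Loxl1, and without it 12 of the 32 glycoproteins and 4 of the collagens were called. The crosslinking and turnover list had 4 lower calls without that library, or without WT gastrocnemius replicate 1, 2 or 4. Fibroblast markers, which share genes with these lists, gave 5 of 15 lower, Mfap5 at -2.0 (SE 0.29, adjusted p = 0.000513) and Col3a1 at -1.13 (SE 0.29, adjusted p = 0.0139) among them, with Col3a1 at -0.90 without that heart library and 2 of the 15 called. Their summed level was 3649 to 9389 CPM in WT and 4268 to 11560 CPM in Mtm1-/y gastrocnemius, and 2190 to 4668 CPM in WT and 2272 to 2587 CPM in Mtm1-/y heart. In the gastrocnemius libraries 1 of these markers was at 0. The part of these cells in the matrix result was not tested.

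Integrins join the matrix to the cytoskeleton, and integrin recycling depends on endosomal phosphoinositides. Of 25 integrin subunits, 5 had a lower heart effect, as follows. Itgax, Itgb2 and Itgam, which are subunits of leukocyte integrins, differed by -3.0 (SE 0.49, adjusted p = 0.00109), -1.65 (SE 0.31, adjusted p = 0.00233) and -1.56 (SE 0.34, adjusted p = 0.0064). The fifth was Itgb4. Without WT gastrocnemius replicate 2, 3 of the 25 were called. Itgb8, which activates transforming growth factor beta, differed by -1.49 (SE 0.42, adjusted p = 0.0241), and by -1.42 without WT gastrocnemius replicate 2 and -1.40 without Mtm1-/y heart replicate 4, where it was no longer called. Itgb1, the shared beta 1 subunit of most matrix receptors, was at 361, 376, 358 and 319.9 CPM in WT gastrocnemius and 546, 526, 447 and 457 CPM in Mtm1-/y gastrocnemius. It was at 542, 535, 588 and 559 CPM in WT heart and 633, 549, 585 and 580.1 CPM in Mtm1-/y heart. Expression rose in gastrocnemius by 0.48, the heart effect was 0.08, and the difference of -0.40 (SE 0.12, adjusted p = 0.0249) passed the test without reaching a size of 1. Of 28 focal adhesion and integrin adaptors, 2 were lower in the heart. These were Fermt3, the kindlin of blood cells, at -1.41 (SE 0.18, adjusted p = 0.000227), and Flnc, the muscle filamin, at -1.5 (SE 0.43, adjusted p = 0.0253). Flnc lost its call without WT heart replicate 4 (-0.94), Mtm1-/y gastrocnemius replicate 1 (-1.33) or Mtm1-/y heart replicate 1 (-1.44). None of the 15 genes of the dystrophin-glycoprotein complex was called by edgeR, with 7 at an unadjusted p under 0.05, while DESeq2 and voom each called 1 higher. For Dag1, which encodes dystroglycan, the difference was 0.19 (SE 0.11, adjusted p = 0.218) and for Sspn, sarcospan, 0.11 (SE 0.11, adjusted p = 0.508), and both turned negative with library totals alone.

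MHC class II molecules display peptides from engulfed proteins to T cells, and they are made mainly by dendritic cells, macrophages and B cells under the control of Ciita. Of 12 genes of this pathway tested, 9 had a lower heart effect, with medians of 2.24 in gastrocnemius and -0.01 in heart. H2-Ab1, a class II beta chain, was at 7.47, 6.59, 8.21 and 7.01 CPM in WT gastrocnemius and 50.2, 45, 29.6 and 47.2 CPM in Mtm1-/y gastrocnemius. The heart values were 21.8, 22.5, 20.7 and 24.5 CPM in WT heart and 21.3, 20.3, 19.9 and 21.2 CPM in Mtm1-/y heart. The gastrocnemius groups were far apart and the heart groups overlapped, with a difference of -2.66 (SE 0.18, adjusted p = 3.04e-06). The alpha chain H2-Aa differed by -2.42 (SE 0.20, adjusted p = 6.98e-06), the invariant chain Cd74 by -2.28 (SE 0.18, adjusted p = 6.01e-06) and Ctss, a lysosomal protease that trims the invariant chain, by -2.47 (SE 0.21, adjusted p = 6.98e-06). WT heart was above WT gastrocnemius for each of these 4 genes, with Cd74 at 70 to 77.9 CPM against 15.6 to 21.5 CPM.

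The start of these genes is shown because class II promoters share an element, the Y box, with the letters ATTGG. RefSeq promoter windows, 250 bases before to 50 after the start on GRCm38.p6, were found for 6 of the 9 genes, 7 windows in all. Of the 6 genes, 5 held ATTGG on either strand in 1 or more windows. H2-DMa had 2 windows, of which 1 held no match. Of all 32851 windows, 37.4% held ATTGG, a share of windows and not of genes. In the 3 windows below, of H2-Aa (chr17:34287774-34288073, minus strand), H2-Eb1 (chr17:34305617-34305916, plus strand) and H2-DMb1 (chr17:34152941-34153240, plus strand), capitals mark ATTGG or its reverse complement.
H2-Aa: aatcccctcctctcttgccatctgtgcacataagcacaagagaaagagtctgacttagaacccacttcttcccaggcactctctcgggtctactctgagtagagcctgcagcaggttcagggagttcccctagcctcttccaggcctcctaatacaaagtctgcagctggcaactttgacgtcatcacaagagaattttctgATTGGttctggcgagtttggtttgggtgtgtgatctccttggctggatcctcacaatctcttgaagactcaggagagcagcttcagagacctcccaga
H2-Eb1: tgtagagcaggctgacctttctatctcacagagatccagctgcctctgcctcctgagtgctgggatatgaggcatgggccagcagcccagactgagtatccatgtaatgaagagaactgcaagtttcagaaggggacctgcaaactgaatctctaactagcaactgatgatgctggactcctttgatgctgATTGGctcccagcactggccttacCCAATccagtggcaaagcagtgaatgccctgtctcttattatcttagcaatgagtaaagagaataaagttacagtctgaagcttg
H2-DMb1: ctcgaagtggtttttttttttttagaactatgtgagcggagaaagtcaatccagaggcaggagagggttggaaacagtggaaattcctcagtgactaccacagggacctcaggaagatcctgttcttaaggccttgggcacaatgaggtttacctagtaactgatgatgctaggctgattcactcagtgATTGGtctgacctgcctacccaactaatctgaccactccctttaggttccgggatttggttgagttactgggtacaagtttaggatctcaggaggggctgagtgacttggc
H2-Eb1 holds the letters on both strands. The 3 were chosen for display after their values were seen, and H2-Eb1 and H2-DMb1 had tissue differences of -2.36 (SE 0.21, adjusted p = 7.97e-06) and -2.56 (SE 0.30, adjusted p = 0.000106). For comparison, 5 of the 8 called acetylcholine receptor and denervation-responsive genes had a window, 7 windows in all. Of these 5 genes, 1 held the E-box CAGCTG and 4 the E-box CAGGTG in 1 or more windows. Of all windows, 16.3% and 20.2% held these letters.

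Macrophage markers gave 12 of 20 lower and none higher. Mpeg1, a pore-forming protein of phagocytes, was at 1.32, 1.79, 1.59 and 1.53 CPM in WT gastrocnemius and 11.6, 8.01, 8.25 and 10.5 CPM in Mtm1-/y gastrocnemius. In the heart it was at 10.9, 8.98, 10.2 and 9.7 CPM in WT heart and 12.6, 12.7, 11.9 and 11.1 CPM in Mtm1-/y heart. It rose in gastrocnemius, the genotypes did not overlap in either tissue, both effects were positive (2.63 in gastrocnemius and 0.28 in heart), and the difference was -2.34 (SE 0.18, adjusted p = 6.01e-06). Lyz2, for lysozyme, differed by -1.85 (SE 0.23, adjusted p = 0.000221) and Laptm5, a lysosomal protein of blood cells, by -1.57 (SE 0.18, adjusted p = 0.000102). The summed level of the 20 markers was 81.31 to 143.2 CPM in WT and 226.5 to 268 CPM in Mtm1-/y gastrocnemius, and 460.3 to 659.4 CPM in WT and 457.1 to 543.6 CPM in Mtm1-/y heart, with no marker at 0 in any library. The part of macrophage number in the antigen presentation, complement, lysosome and integrin results was not tested. Of 5 dendritic cell and monocyte markers tested, 2 were lower in the heart, Itgax and Ccr2. None of 5 neutrophil, 4 melanocyte or 6 erythroid markers was called by edgeR or voom, with 0, 1 and 3 at an unadjusted p under 0.05 by edgeR. DESeq2 called 1 erythroid marker higher, and edgeR called 3 without Mtm1-/y gastrocnemius replicate 3, 2 without WT heart replicate 1 or 2, and 1 melanocyte marker without WT heart replicate 2 or Mtm1-/y heart replicate 2.

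Complement genes gave 12 of 19 lower. C1qa, C1qb and C1qc, the chains of the first complement component made by macrophages, differed by -1.49 (SE 0.18, adjusted p = 0.000161), -1.43 (SE 0.21, adjusted p = 0.000555) and -1.48 (SE 0.27, adjusted p = 0.00189). Cfd, for complement factor D or adipsin, which adipocytes secrete, differed by -4.30 (SE 0.76, adjusted p = 0.00173). Chemokines and their receptors gave 14 of 27 lower and 1, Cxcl11, higher. Ccl2, which recruits monocytes, was at 0.189, 0.167, 0.304 and 0.218 CPM in WT gastrocnemius and 5.1, 3.9, 5.77 and 1.09 CPM in Mtm1-/y gastrocnemius. Heart libraries held 1.84, 2.14, 1.82 and 0.89 CPM in WT heart and 2.45, 1.43, 2.23 and 1.68 CPM in Mtm1-/y heart. Expression rose in gastrocnemius and the heart groups overlapped, with a difference of -3.92 (SE 0.62, adjusted p = 0.000956). Its receptor Ccr2 differed by -3.03 (SE 0.46, adjusted p = 0.000655), the membrane-bound chemokine Cx3cl1 by -3.07 (SE 0.35, adjusted p = 9.39e-05) and Ccl6 by -2.58 (SE 0.37, adjusted p = 0.000545). Lysosome genes gave 6 of 34 lower, or 3 without WT gastrocnemius replicate 2 or WT heart replicate 4, led by the macrophage marker Cd68 at -2.39 (SE 0.33, adjusted p = 0.000412). The protease Lgmn differed by -1.1 (SE 0.15, adjusted p = 0.000396), and by -0.97 without Mtm1-/y gastrocnemius replicate 1, and Ctsl by -1.02 (SE 0.16, adjusted p = 0.000858), with its call lost without WT gastrocnemius replicate 2, Mtm1-/y gastrocnemius replicate 1 or WT heart replicate 4 (-0.92 to -1.11 over all 16 fits that left out 1 library). MHC class I presentation had 1 of 14 lower, the regulator Nlrc5 at -1.45 (SE 0.47, adjusted p = 0.0425), lost in 12 of those fits, and interferon-stimulated genes 1 of 30 higher, Gbp7, an interferon-induced GTPase, at 1.33 (SE 0.32, adjusted p = 0.0109).

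Signalling through tumour necrosis factor receptors and NF-kB gave 10 of 29 lower and none higher. Nfkb2, the precursor of the p52 subunit of NF-kB, was at 13.8, 13.5, 13.8 and 14.1 CPM in WT gastrocnemius and 73, 53.5, 43.7 and 51.1 CPM in Mtm1-/y gastrocnemius. It was at 20.6, 22.2, 21.9 and 24.6 CPM in WT heart and 21.5, 23.5, 23.5 and 20.4 CPM in Mtm1-/y heart. It rose in gastrocnemius without overlap, the heart groups overlapped, and the difference was -2.01 (SE 0.17, adjusted p = 6.98e-06). Eda2r, a receptor of the tumour necrosis factor family linked to muscle wasting, was at 12.8, 10.5, 14.6 and 14.3 CPM in WT gastrocnemius and 201, 138, 116 and 118 CPM in Mtm1-/y gastrocnemius. Its heart levels were 6.23, 5.6, 5.38 and 3.39 CPM in WT heart and 6.99, 4.47, 6.4 and 5.6 CPM in Mtm1-/y heart. Expression rose in gastrocnemius without overlap, and the difference was -3.27 (SE 0.29, adjusted p = 1.16e-05). Nfkbie, an inhibitor of NF-kB, differed by -2.56 (SE 0.37, adjusted p = 0.000521) and the decoy receptor Tnfrsf23 by -1.86 (SE 0.30, adjusted p = 0.00101). Targets of p53 and Gadd45 genes overlap with this list at Eda2r, and gave 8 of 22 lower. Phlda3, a p53 target that inhibits Akt, differed by -2.21 (SE 0.37, adjusted p = 0.00118), the kinase Plk2 by -1.14 (SE 0.24, adjusted p = 0.00533) and the cell cycle inhibitor Cdkn1a by -1.61 (SE 0.46, adjusted p = 0.0237), with Cdkn1a no longer called without WT gastrocnemius replicate 2 (-1.51) or Mtm1-/y gastrocnemius replicate 1 (-1.47).

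Metallothioneins bind zinc and copper and are induced by metals, glucocorticoids and oxidative stress. Mt2 was at 30.5, 13.4, 24.5 and 42 CPM in WT gastrocnemius and 139.8, 177, 256 and 99.6 CPM in Mtm1-/y gastrocnemius. Its heart levels were 19.3, 17.9, 30 and 56.5 CPM in WT heart and 13.6, 9.52, 8.81 and 15.6 CPM in Mtm1-/y heart. Mt1 was at 39.5, 22.8, 25.5 and 56.1 CPM in WT gastrocnemius and 98.3, 85.1, 170.0 and 59.5 CPM in Mtm1-/y gastrocnemius, and at 95.4, 80.5, 99.7 and 135 CPM in WT heart and 56.9, 62.1, 47.1 and 52.3 CPM in Mtm1-/y heart. For both genes the genotypes did not overlap in either tissue, and lay in opposite directions, with differences of -3.98 (SE 0.57, adjusted p = 0.000513) for Mt2 and -2.43 (SE 0.43, adjusted p = 0.00168) for Mt1. Neither heart effect passed the test on its own (-1.38 with adjusted p = 0.315 for Mt2, -0.91 with adjusted p = 0.335 for Mt1). Without WT heart replicate 4, the highest WT heart library for both, the differences were -3.53 and -2.28. Mt3, a member best known from brain, was at 4.57, 2.04, 3.68 and 3.34 CPM in WT and 30, 60.9, 26.5 and 17 CPM in Mtm1-/y gastrocnemius and differed by -5.54 (SE 0.98, adjusted p = 0.00173).

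The starts of Mt1 and Mt2 are shown with the core letters of the metal response element, TGCACNC or TGCGCNC, on both strands, a motif chosen after the values were seen. All 3 metallothionein windows held a match, as did 25.7% of all windows. The Mt1 window (chr8:94178839-94179138, plus strand) held 3 matches and the Mt2 window (chr8:94172368-94172667, plus strand) held 4, a number that 0.517% of all windows reach or pass. Capitals mark the matches.
Mt1: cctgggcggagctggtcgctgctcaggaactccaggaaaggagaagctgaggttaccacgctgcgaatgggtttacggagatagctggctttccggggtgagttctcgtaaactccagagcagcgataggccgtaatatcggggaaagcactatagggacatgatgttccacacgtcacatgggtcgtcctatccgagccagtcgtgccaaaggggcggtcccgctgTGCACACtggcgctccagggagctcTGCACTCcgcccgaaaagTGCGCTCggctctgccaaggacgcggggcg
Mt2: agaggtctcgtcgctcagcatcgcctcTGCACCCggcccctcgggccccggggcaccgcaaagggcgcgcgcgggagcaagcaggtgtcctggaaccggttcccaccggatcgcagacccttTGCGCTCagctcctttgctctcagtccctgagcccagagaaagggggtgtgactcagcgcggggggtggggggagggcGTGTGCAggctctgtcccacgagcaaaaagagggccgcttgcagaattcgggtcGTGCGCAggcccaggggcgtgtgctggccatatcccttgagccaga

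Of 28 genes of superoxide and peroxide defence, 7 were lower and none higher in the heart at the size threshold, Mt1 and Mt2 among them. Cybb, the oxidase subunit of phagocytes, differed by -1.61 (SE 0.30, adjusted p = 0.00219) and the extracellular dismutase Sod3 by -1.58 (SE 0.30, adjusted p = 0.0025). Sod2, the dismutase of the mitochondrial matrix, was at 249.6, 278, 286 and 295 CPM in WT gastrocnemius and 173, 212, 164 and 172 CPM in Mtm1-/y gastrocnemius. It was at 359, 414, 361 and 235 CPM in WT heart and 414, 385, 449 and 414 CPM in Mtm1-/y heart. It fell in gastrocnemius (-0.62, adjusted p = 0.00355), the heart groups overlapped with WT replicate 4 lowest, and the difference was 0.90 (SE 0.19, adjusted p = 0.00536), below the size threshold. Small heat shock proteins and their partners gave 3 of 13 lower, or 5 without WT heart replicate 2, with Cryab, for alpha B crystallin, at -1.33 (SE 0.23, adjusted p = 0.00152), Hspb7 at -1.52 (SE 0.30, adjusted p = 0.00361) and Hspb1 at -1.74 (SE 0.35, adjusted p = 0.00384). The integrated stress response gave 5 of 24 lower. Atf3, a transcription factor of stressed cells, was at 98.2, 33.1, 48.2 and 13.2 CPM in the Mtm1-/y gastrocnemius libraries against 5.24 to 16.9 CPM in WT, where the groups overlapped, and differed by -2.32 (SE 0.64, adjusted p = 0.0208). Psat1, of serine synthesis, differed by -1.37 (SE 0.36, adjusted p = 0.0157) and Nupr1 by -1.48 (SE 0.42, adjusted p = 0.0234), Nupr1 with effects of 0.39 in gastrocnemius and -1.1 in heart. Gdf15, a stress hormone, differed by -4.17 (SE 0.90, adjusted p = 0.00581) at levels under 1 CPM in every library. Glucocorticoid-responsive genes gave 5 of 23 lower, which were Mt1, Mt2, Cdkn1a, Fbxo32 and Angptl4, an inhibitor of lipoprotein lipase. All but Angptl4 were also counted in lists above. The list's median difference was -0.07, close to the -0.03 of all genes, and 9 of the 23 differences were positive. Without WT gastrocnemius replicate 2 or Mtm1-/y gastrocnemius replicate 1, 3 of the 23 were called.

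Myostatin, activin and BMP signalling gave 9 of 30 lower. Fst, for follistatin, which binds and blocks activin and myostatin, was at 7, 8.68, 9.66 and 7.01 CPM in WT gastrocnemius and 29.6, 27.5, 22.4 and 37.6 CPM in Mtm1-/y gastrocnemius. Heart levels were 1.9, 1.21, 2.2 and 3.39 CPM in WT heart and 1.59, 1.4, 1.37 and 0.838 CPM in Mtm1-/y heart. It rose in gastrocnemius without overlap, the heart groups overlapped, and the difference was -2.60 (SE 0.37, adjusted p = 0.000482). Mstn, for myostatin, which restrains muscle growth, fell in gastrocnemius (WT 109 to 175 CPM, Mtm1-/y 32.8 to 50.8 CPM). Its heart levels were 0.623, 0.676, 2.66 and 2.03 CPM in WT heart and 0.572, 0.768, 0.36 and 0.168 CPM in Mtm1-/y heart, and the difference was 0.04 (SE 0.75, adjusted p = 0.984), with a sign that turned with library totals alone. Ltbp2, a binding protein of latent growth factors, differed by -4.39 (SE 0.54, adjusted p = 0.000174), the transcriptional inhibitor Id2 by -2.56 (SE 0.39, adjusted p = 0.000716), and Fstl1 by -1.18 (SE 0.25, adjusted p = 0.00564), which was -0.99 and not called without WT heart replicate 4. Insulin-like growth factor signalling gave 2 of 28 lower, Igfbp4 at -1.29 (SE 0.34, adjusted p = 0.0164), or -0.89 without WT heart replicate 4, and Igf2 at -1.75 (SE 0.55, adjusted p = 0.0378), lost in 9 of the 16 fits that left out 1 library (-1.20 to -2.01). Igf2 was also the one gene called of 23 myogenic regulators and satellite cell genes. Tiam2, an activator of the small GTPase Rac, rose in gastrocnemius (WT 3.63 to 6.81 CPM, Mtm1-/y 15 to 27 CPM), with 2.89 to 4.2 CPM in WT and 1.33 to 3.6 CPM in Mtm1-/y heart, a difference of -2.59 (SE 0.43, adjusted p = 0.00115).

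None of 28 PtdIns3P kinases and effectors and none of 14 centronuclear myopathy and membrane remodelling genes was called by edgeR, DESeq2 or voom. By edgeR, 9 and 6 of them had an unadjusted p under 0.05, as did 5767 of all 16627 genes tested. Of 14 myotubularins 1 was called, Mtmr7, at -1.92 (SE 0.63, adjusted p = 0.0436). Mtmr7 was under 1 CPM in every library and lost its call in 12 of the 16 fits that left out 1 library. Dnm2, for dynamin 2, a membrane-severing GTPase, was at 70.7, 60.6, 62.5 and 69.3 CPM in WT gastrocnemius and 78.1, 70.3, 65.2 and 69.5 CPM in Mtm1-/y gastrocnemius. It was at 75.8, 79.1, 70.6 and 71.3 CPM in WT heart and 71.8, 78.6, 77.8 and 77.6 CPM in Mtm1-/y heart. The groups overlapped in both tissues, with a difference of -0.06 (SE 0.10, adjusted p = 0.702). For Bin1, a membrane-bending protein of triads, the difference was 0.02 (SE 0.18, adjusted p = 0.96). Speg, a kinase of the triad, differed by 0.38 (SE 0.16, adjusted p = 0.093). Bin1 and Speg turned negative with library totals alone, and Dnm2 turned positive with the adipocyte score as a covariate. Arrdc2, an arrestin-domain gene that responds to glucocorticoids, fell in gastrocnemius and was at 119, 138, 176 and 215 CPM in WT gastrocnemius and 50.6, 55.2, 95.8 and 34.6 CPM in Mtm1-/y gastrocnemius. It was at 21.9, 20.1, 24.1 and 34.7 CPM in WT heart and 8.58, 12.7, 8.92 and 12.4 CPM in Mtm1-/y heart. The genotypes did not overlap in either tissue, both effects were negative (-1.46 in gastrocnemius and -1.24 in heart), and the difference was 0.21 (SE 0.39, adjusted p = 0.738), with a sign that turned with library totals alone. Autophagy (27 genes) and the circadian clock (19 genes) gave no call by edgeR, with 11 and 3 genes at an unadjusted p under 0.05, while DESeq2 called 1 gene of each list higher and voom 1 of the clock.

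For nuclear-encoded complex I, 14 of 37 genes passed the adjusted p with a higher heart effect and none with a lower one, at a median difference of 0.38. Complexes II to IV gave 10 higher and 2 lower of 28 (median 0.42), the ATP synthase 5 higher and 1 lower of 16 (median 0.39), and the mitochondrial ribosome 8 higher and 1 lower of 77 (median 0.23), against 9.94% and 9.89% of all genes. The 15 genes of the tricarboxylic acid cycle all had positive differences, of which 12 passed (medians of -0.46 in gastrocnemius, 0.24 in heart and 0.70 for the difference). Fatty acid uptake and oxidation gave 3 higher of 24 (median 0.32). With the size threshold, no gene of complexes I to IV, the ATP synthase, the tricarboxylic acid cycle or fatty acid oxidation was called by edgeR, DESeq2 or voom. With library totals alone the medians fell to -0.03 for complex I, 0.01 for complexes II to IV, -0.01 for the ATP synthase, -0.18 for the mitochondrial ribosome, -0.08 for fatty acid oxidation and 0.29 for the tricarboxylic acid cycle, all above the -0.44 of all genes at that scaling. Without WT heart replicate 4 the medians were 0.24 for complex I, 0.58 for the tricarboxylic acid cycle, 0.11 for the mitochondrial ribosome and 0.22 for fatty acid oxidation. In the same order, they were 0.16, 0.46, 0.05 and 0.21 with the atrial score of the heart libraries as a covariate. With the white adipocyte score they were 0.23, 0.46, 0.09 and 0.01. A score of 16 hepatocyte markers gave 0.55, 0.87, 0.41 and 0.59. The median of all genes lay between -0.04 and -0.02 in these settings.

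**Figure D5:**
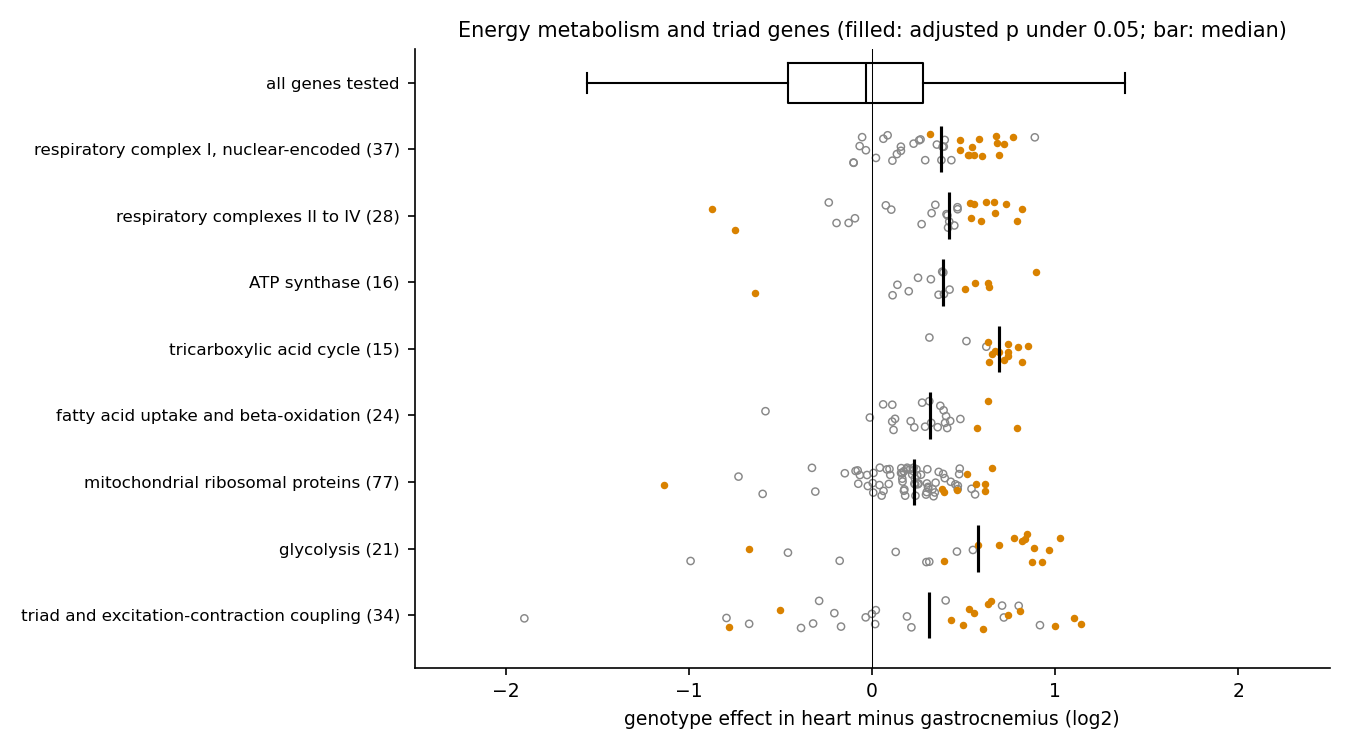
Tissue difference on the log2 scale of each gene of 8 lists (points, filled where the adjusted p is under 0.05) with a bar at the list's median, below a box plot of all genes tested (box: quartiles). 1 gene lies outside the axis and all 15 genes of the tricarboxylic acid cycle lie to the right of 0.

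Ndufs1, the largest subunit of complex I, was at 676, 708, 769.9 and 721 CPM in WT gastrocnemius and 440.3, 564, 453 and 479 CPM in Mtm1-/y gastrocnemius. The heart values were 823, 915, 905 and 647 CPM in WT heart and 993, 875, 923 and 988 CPM in Mtm1-/y heart. It fell in gastrocnemius without overlap, while in the heart WT replicate 4 was below the rest and the groups overlapped, with a difference of 0.77 (SE 0.15, adjusted p = 0.00368). Sdha, the flavoprotein of complex II, differed by 0.82 (SE 0.18, adjusted p = 0.0064), and Cox4i1, of complex IV, by 0.45 (SE 0.16, adjusted p = 0.0556), which did not pass. The alpha and beta subunits of the ATP synthase, Atp5a1 and Atp5b, differed by 0.63 (SE 0.16, adjusted p = 0.014) and 0.64 (SE 0.15, adjusted p = 0.00861). Ogdh, of the tricarboxylic acid cycle, was at 1622 to 2733 CPM in WT and 2644 to 3396 CPM in Mtm1-/y heart and differed by 0.79 (SE 0.19, adjusted p = 0.00944), and the cytosolic malate dehydrogenase Mdh1 by 0.31 (SE 0.18, adjusted p = 0.232). For fatty acid uptake, the values were 0.79 (SE 0.26, adjusted p = 0.0437) for the lipoprotein lipase gene Lpl and 0.29 (SE 0.21, adjusted p = 0.343) for Cd36. Mdh1 and Cd36 turned negative with library totals alone. Ppara, a receptor that drives fatty acid oxidation, was the one mitochondrial regulator of 16 called, at 1.03 (SE 0.24, adjusted p = 0.00862), and it lost its call in 6 of the 16 fits that left out 1 library (0.85 to 1.13). Mrpl52 was the one mitochondrial ribosomal gene called, in the other direction at -1.14 (SE 0.33, adjusted p = 0.0253), with the call lost in 6 of those fits. mt-Rnr1, an rRNA of the mitochondrial genome and the one called gene with a higher heart effect whose heart log2 fold change was at least 2 times that of gastrocnemius in size, with no overlap and at least 5 CPM in the heart, was at 9.83, 10.9, 9.87 and 7.6 CPM in WT gastrocnemius and 5.51, 7.8, 6.96 and 6.71 CPM in Mtm1-/y gastrocnemius. It was at 9.08, 8.02, 8.47 and 3.11 CPM in WT heart and 14.4, 10.6, 12.9 and 19.7 CPM in Mtm1-/y heart. The heart groups did not overlap and it differed by 1.51 (SE 0.37, adjusted p = 0.0115).

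Of 21 glycolysis genes, 12 passed the adjusted p with a higher heart effect and 1 with a lower one (medians of -0.55 in gastrocnemius and 0.14 in heart). Pgk1, for phosphoglycerate kinase, was the gene past the size threshold, at 1.03 (SE 0.21, adjusted p = 0.00386), with the call lost in 4 of the 16 fits that left out 1 library (0.91 to 1.12). Among fast-fibre genes, 2 of 19 had a higher heart effect. Pygm, the glycogen phosphorylase of muscle, fell in gastrocnemius (WT 11201 to 13154 CPM, Mtm1-/y 5755 to 7400.0 CPM), with 859.5 to 1183 and 1077 to 1365 CPM in heart, a difference of 1.1 (SE 0.18, adjusted p = 0.00101). Mybpc2, the fast myosin-binding protein C, differed by 1.35 (SE 0.42, adjusted p = 0.0359), lost in 10 of the fits that left out 1 library. Myh1, the type IIX myosin heavy chain, was called lower. Expression rose in gastrocnemius (WT 3104 to 4641 CPM, Mtm1-/y 6726 to 9111 CPM), the heart held 1.08 to 2.11 CPM, and the difference was -1.32 (SE 0.27, adjusted p = 0.00431). Slow-fibre and ventricular genes gave 1 of 16 lower, Lmod2, an actin nucleator, at -1.08 (SE 0.30, adjusted p = 0.0215), lost in 4 of those fits (-0.85 to -1.28). With library totals alone, Pygm, Mybpc2 and Pgk1 kept their sign and were not called.

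The triad and its calcium handling gave 12 of 34 genes with a higher heart effect and 3 with a lower one at the adjusted p (median difference 0.31, with -0.43 in gastrocnemius and 0.07 in heart), and 3 and 1, Sln, with the size threshold. The 3 higher calls became 1 without WT gastrocnemius replicate 2 or 4 or WT heart replicate 4. Jph2, for junctophilin 2, which ties the plasma membrane to the sarcoplasmic reticulum, was at 1129, 1207, 1061 and 1156 CPM in WT gastrocnemius and 676, 725, 595 and 618 CPM in Mtm1-/y gastrocnemius. In the heart it was at 438, 484, 465 and 389.6 CPM in WT heart and 519, 475, 609 and 585 CPM in Mtm1-/y heart. It fell in gastrocnemius without overlap, the heart groups overlapped, and the difference was 1.1 (SE 0.14, adjusted p = 0.000208). Cacna1s, the voltage sensor of skeletal muscle, differed by 1.14 (SE 0.34, adjusted p = 0.0294), where the heart held 2.17 to 9.04 CPM. Cacna1s lost its call in 6 of the 16 fits that left out 1 library (0.83 to 1.38). Ryr1, the calcium release channel of skeletal muscle, fell in gastrocnemius (-0.53, adjusted p = 0.0101) and was under 0.6 CPM in every heart library, with a difference of 0.80 (SE 0.30, adjusted p = 0.0681). Ttn, the giant spring protein titin, differed by 0.77 (SE 0.16, adjusted p = 0.00446). Cacna2d4, an auxiliary calcium channel subunit, was at 12.4, 17.8, 11.5 and 10.3 CPM in WT gastrocnemius and 0.732, 1.1, 1.76 and 1.21 CPM in Mtm1-/y gastrocnemius, and at most 0.145 CPM in heart, a difference of 3.75 (SE 0.72, adjusted p = 0.0029). With library totals alone, the median of the triad list was -0.11 and Jph2 and Cacna1s kept their sign and were not called.

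Of 15 genes of polyamine metabolism, 3 had a higher heart effect and none a lower one, at a list median of -0.01. Polyamines are small cations made from ornithine and S-adenosylmethionine that bind nucleic acids and ion channels. Amd1, for adenosylmethionine decarboxylase, which supplies the aminopropyl groups, was at 175, 214, 228 and 147 CPM in WT gastrocnemius and 18, 22.8, 24.3 and 17.5 CPM in Mtm1-/y gastrocnemius. Heart libraries held 19.4, 15.8, 18.4 and 14.3 CPM in WT heart and 23.9, 13.7, 13.7 and 15.6 CPM in Mtm1-/y heart. It fell in gastrocnemius without overlap, the heart groups overlapped, and the difference was 3.19 (SE 0.27, adjusted p = 6.98e-06). Amd2, a near-identical copy whose reads cannot be cleanly separated from those of Amd1, differed by 3.45 (SE 0.51, adjusted p = 0.000602). Smox, for spermine oxidase, was at 245, 288, 259 and 245 CPM in WT gastrocnemius and 63.3, 68.8, 62.2 and 98.2 CPM in Mtm1-/y gastrocnemius. Its heart levels were 25.1, 28.9, 24 and 25.4 CPM in WT heart and 23.4, 20.9, 23.9 and 25.4 CPM in Mtm1-/y heart. It fell in gastrocnemius, the heart groups overlapped, and the difference was 1.68 (SE 0.18, adjusted p = 5.38e-05).

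Ighm, the constant region of the IgM heavy chain, was at 61.8, 77.7, 86.9 and 85.1 CPM in WT gastrocnemius and 6.75, 6.06, 9.29 and 5.59 CPM in Mtm1-/y gastrocnemius. Its heart levels were 13.3, 15, 6.59 and 7.31 CPM in WT heart and 10, 10.5, 11.7 and 12.9 CPM in Mtm1-/y heart. It fell in gastrocnemius without overlap, and the difference was 3.59 (SE 0.33, adjusted p = 1.59e-05). It was the one gene called of 10 B cell markers, and it made up 98.4% of their summed level in WT gastrocnemius. The summed level of the 10 markers was 62.8 to 87.57 CPM in WT and 6.405 to 10.23 CPM in Mtm1-/y gastrocnemius, with up to 3 of them at 0 in a library. Of 9 T cell markers Cd3e was called, at 1.71 (SE 0.51, adjusted p = 0.0294) and at levels under 0.5 CPM in every library. The Cd3e call was lost in 5 of the 16 fits that left out 1 library. Of the 9 differences, 6 were negative, with a list median of -0.73. Of 34 cell cycle genes, 2 had a higher heart effect, while 29 of the 34 differences were negative, against 8808 of all 16627 genes tested, with a median of -0.42 that ran from -0.68 without Mtm1-/y heart replicate 1 to -0.16 without Mtm1-/y gastrocnemius replicate 3. Aurka, a mitotic kinase, was at 17.3 to 23.7 CPM in WT and 7.35 to 12.7 CPM in Mtm1-/y gastrocnemius and differed by 1.86 (SE 0.43, adjusted p = 0.00794). Ube2c, a mitotic ubiquitin-conjugating enzyme, differed by 1.55 (SE 0.47, adjusted p = 0.0317), lost in 10 of the 16 fits that left out 1 library (1.18 to 1.82).

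Among non-coding genes with a higher heart effect, C130080G10Rik fell in gastrocnemius, with 27.8, 26.8, 27.8 and 19.5 CPM in WT gastrocnemius and 0.624, 1.57, 3.26 and 1.43 CPM in Mtm1-/y gastrocnemius. It was at 50, 54.4, 65.7 and 66.8 CPM in WT heart and 55.6, 51.2, 59.2 and 67.8 CPM in Mtm1-/y heart. The difference was 3.88 (SE 0.39, adjusted p = 3.15e-05). A530058N18Rik, whose symbol is shared with another gene record and which overlaps C130080G10Rik on chromosome 2, differed by 4.07 (SE 0.43, adjusted p = 5.38e-05), and the reads of overlapping genes are uncertain. 1700001O22Rik fell in gastrocnemius (WT 2.58 to 7.26 CPM, Mtm1-/y 0.0911 to 0.596 CPM) and was under 0.3 CPM in heart, a difference of 3.78 (SE 0.83, adjusted p = 0.00622). Gm29773 fell in gastrocnemius (WT 34 to 42.4 CPM, Mtm1-/y 16.5 to 24.7 CPM). It had reads in 1 WT and 2 Mtm1-/y heart libraries, at up to 0.216 CPM, so that its difference of 3.64 (SE 1.20, adjusted p = 0.0438) rests on a few heart reads and was lost in 13 of the 16 fits that left out 1 library.

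Genes with opposite effects, each over 0.5 in size, at 5 CPM or more and without overlap between genotypes in either tissue, numbered 2 with a higher and 14 with a lower heart effect. Of all genes tested, 28.8% had no overlap between genotypes in gastrocnemius and 4.29% had none in heart. The 2 higher ones were Ky and Slc28a2. Ky, a muscle protein whose loss causes kyphoscoliosis in mice, was at 397, 469.6, 562 and 501 CPM in WT gastrocnemius and 269, 275, 276 and 291 CPM in Mtm1-/y gastrocnemius. The heart values were 28.5, 29.3, 23.1 and 9.23 CPM in WT heart and 30.7, 36.9, 36.4 and 39.1 CPM in Mtm1-/y heart. The values of WT heart replicate 4 lay below those of the other WT hearts, the difference was 1.46 (SE 0.34, adjusted p = 0.00823), and without that library it was 1.19. Slc28a2, a nucleoside transporter, differed by 1.12 (SE 0.26, adjusted p = 0.00795) and by 0.92, not called, without the same library. Atp1b4, a muscle protein of the nuclear membrane, was at 21.6, 19.6, 19.8 and 15.7 CPM in WT gastrocnemius and 45.8, 59.8, 45.8 and 40.2 CPM in Mtm1-/y gastrocnemius, but every heart library except WT replicate 4, at 0.139 CPM, was under 3 counts, and its difference of -2.48 (SE 0.58, adjusted p = 0.0121) was -2.08 (adjusted p = 0.0948) without WT heart replicate 4. Ifi27l2a, an interferon-inducible gene, had effects of 1.30 in gastrocnemius and -0.94 in heart and differed by -2.25 (SE 0.39, adjusted p = 0.0015). Aacs, of ketone body use in lipid synthesis, had effects of 0.78 in gastrocnemius and -0.72 in heart and differed by -1.51 (SE 0.32, adjusted p = 0.00509).

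Several of the opposite genes, and of those with the larger effect in the heart, are known from adipocytes. Adipoq, for adiponectin, the defining hormone of adipocytes, was at 6.21, 5.97, 3.99 and 15.6 CPM in WT gastrocnemius and 24.5, 15.8, 23.5 and 24.7 CPM in Mtm1-/y gastrocnemius. In the heart it was at 19, 6.11, 7.17 and 19.7 CPM in WT heart and 2.83, 2.51, 1.47 and 2.55 CPM in Mtm1-/y heart. The genotypes did not overlap in either tissue and lay in opposite directions, with a difference of -3.95 (SE 0.61, adjusted p = 0.000825). Plin1, which coats the lipid droplet, was at 3.91, 4.17, 2.77 and 11.6 CPM in WT gastrocnemius and 18.5, 7.63, 17.6 and 19.4 CPM in Mtm1-/y gastrocnemius. Heart libraries held 16.3, 4.17, 7.81 and 18.7 CPM in WT heart and 1.59, 1.81, 0.683 and 1.47 CPM in Mtm1-/y heart. The heart groups did not overlap and the gastrocnemius groups did, with a difference of -4.56 (SE 0.73, adjusted p = 0.00101). Cebpa, a transcription factor of adipocytes and hepatocytes, differed by -2.15 (SE 0.35, adjusted p = 0.00109), the lipid droplet protein Cidec by -4.21 (SE 0.74, adjusted p = 0.00163), haptoglobin, Hp, by -3.39 (SE 0.64, adjusted p = 0.00268), Pck1, of glyceride and glucose synthesis, by -3.36 (SE 0.53, adjusted p = 0.000923) and Scd1, a fatty acid desaturase, by -2.84 (SE 0.83, adjusted p = 0.0269). Scd1 was highest in WT heart replicate 1, at 523 CPM against 83.4 to 104 CPM in the other WT hearts, and without that library its difference was -1.73 and not called, as in 6 of the 16 fits that left out 1 library.

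Of 21 white adipocyte markers, 12 had a lower heart effect, Retn, for resistin, among them at -3.99 (SE 0.64, adjusted p = 0.00104), with medians of 0.39 in gastrocnemius and -0.98 in heart. Their summed level was 4350 to 6146 CPM in WT and 3884 to 5118 CPM in Mtm1-/y gastrocnemius, where 73.7% and 66.4% came from Car3, which muscle also expresses, and 1478 to 2434 CPM in WT and 1350 to 1440 CPM in Mtm1-/y heart. No marker of the list was at 0 in any library. Brown adipocyte markers gave 4 of 9 lower and none higher, with 4 of the 9 differences positive, of which 2 passed the adjusted p below the size threshold. The 4 lower calls became 2 without WT heart replicate 1 and 1 with a replicate block. Ucp1, the uncoupling protein that defines brown fat, was at 24.5, 0.197, 0 and 2.92 CPM in WT heart and 0.222, 0.209, 0.0719 and 0 CPM in Mtm1-/y heart. It was at 0.676 to 1.88 CPM in WT and 1.51 to 3.77 CPM in Mtm1-/y gastrocnemius. WT heart replicate 1 held most of it, and its difference of -6.53 (SE 1.86, adjusted p = 0.0237) became -3.82 (adjusted p = 0.0717) without that library. It was -6.12 (adjusted p = 0.0506) without Mtm1-/y heart replicate 4. Otop1, a second brown fat marker, differed by -4.75 (SE 1.04, adjusted p = 0.00617). The amount of fat dissected with each organ is not given in the labels, and its part in these differences was not tested.

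Of the 315 genes with a higher heart effect, 93 had a heart log2 fold change above 1. Of 16 hepatocyte markers, 12 had a higher heart effect and 2 a lower one. Without Mtm1-/y heart replicate 1, 6 were called higher, with the atrial score of the heart libraries as a covariate 2, and with the adipocyte score none. The lower calls included Hp, at -3.39, which made up 41.2% of the summed level of the list in Mtm1-/y gastrocnemius. Alb, with the values given above, overlapped between genotypes in the gastrocnemius and not in the heart, and differed by 4.57 (SE 1.28, adjusted p = 0.022). Apoa2, an apolipoprotein of high-density lipoprotein, was at 11.2, 3, 7.84 and 1.42 CPM in WT gastrocnemius and 1.74, 0.479, 3.95 and 0.121 CPM in Mtm1-/y gastrocnemius. It was at 2.59, 0.141, 0.26 and 0.195 CPM in WT heart and 6.58, 4.19, 3.81 and 2.95 CPM in Mtm1-/y heart. Its difference was 4.40 (SE 1.30, adjusted p = 0.0279), with calls lost without WT gastrocnemius replicate 1 (3.87), WT heart replicate 3 (4.10) or Mtm1-/y heart replicate 1 (4.12). Fgb, of fibrinogen, and Apob, of low-density lipoprotein, differed by 4.77 (SE 1.14, adjusted p = 0.00979) and 4.71 (SE 1.16, adjusted p = 0.0115). The summed level of the 16 markers was 75.41 to 173.4 CPM in WT and 42.57 to 140.4 CPM in Mtm1-/y gastrocnemius, and 22.5 to 203.2 CPM in WT and 65.86 to 173 CPM in Mtm1-/y heart, with up to 3 markers at 0 in a WT heart library. With a score of these markers as a covariate, 1356 genes were called, of which 851 were among the 1286, and 3 of the 16 markers were called higher and 3 lower. The part of liver RNA in these differences was not tested.

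Of 14 endothelial markers none was called by edgeR or voom and 1 was called higher by DESeq2 and with a replicate block. By edgeR, 8 of the 14 had an unadjusted p under 0.05 and 7 passed the adjusted p with a higher heart effect, such as Cdh5, the endothelial cadherin, at 0.84 (SE 0.19, adjusted p = 0.00813) and the growth factor receptor Kdr at 0.97 (SE 0.29, adjusted p = 0.032). Pericytes and smooth muscle gave 1 of 13 lower, Cspg4, while 7 of the 13 differences were positive, with a list median of 0.25. At the adjusted p alone, 3 of these 13 had a higher heart effect and 1 a lower one. Schwann cells and nerve gave 1 of 12 lower, S100b, at a list median of -0.84. Ventricular markers gave 1 of 12 lower and atrial markers 1 of 14, Sln. The atrial list had a median difference of -1.72 and a median heart effect of -2.21. Its median difference was -0.60 with no call without WT heart replicate 4, and -4.24 with 5 lower calls without Mtm1-/y heart replicate 2.

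The diaphragm, a second skeletal muscle, was measured in 4 WT and 3 Mtm1-/y libraries that took no part in the tissue difference. Of the 971 genes with a lower heart effect, 946 could be tested there. Their median log2 fold change in diaphragm was 0.33, and 73.3% were positive. Of the 315 with a higher heart effect, 290 could be tested, with a median of -0.39 and 8.28% positive. Over all 15771 genes tested in both, the median was 0.00 and 49.7% were positive. By gene, the diaphragm log2 fold changes were 2.27 (SE 0.50) for Cilp, 2.34 (SE 0.42) for Runx1, 0.90 (SE 0.31) for H2-Ab1 and 0.92 (SE 0.19) for Nfkb2. They were -0.48 (SE 0.25) for Amd1, -0.05 (SE 0.13) for Smox and -1.23 (SE 0.92) for Ighm, smaller in size than the gastrocnemius effects of -3.21, -1.83 and -3.49, a difference between muscles that was not tested. Of 106 called genes with values given here and a gastrocnemius effect past the adjusted p, 23 had the opposite sign in diaphragm. The 106 include 1700001O22Rik, A530058N18Rik, Amd2, C130080G10Rik and Cacna2d4, which had no diaphragm value and could not be compared. In 6 of the 23, Aacs, Adipoq, Cfd, Lad1, Plin1 and Retn, the diaphragm value was more than 1 SE from 0, and the others included Krt18 at -0.50 (SE 1.07), Krt8 at -0.23 (SE 1.09), Itgb2 at -0.17 (SE 0.54), Ifi27l2a at -0.42 (SE 0.57), Laptm5 at -0.04 (SE 0.44) and C1qc at -0.03 (SE 0.37). For Mt2 the diaphragm value was 1.28 (SE 0.75), and for Adipoq -0.93 (SE 0.59). The labels do not say whether the diaphragms came from the mice whose hearts and gastrocnemius muscles were used.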

How the data were processed

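Poly(A) RNA of male mice was sequenced on stranded libraries, and the deposited table gives whole-number read counts per gene for 30 libraries, of which the 16 of heart and gastrocnemius were used for the tissue difference and the 7 of diaphragm for 1 description. Per the labels and the study's methods, the authors removed adapters with cutadapt 1.10, used STAR 2.5.3a for alignment to the mm10 build, and obtained gene counts from HTSeq 0.6.1p1. The strand setting of the counting is not given in the sources used here, so genes that overlap on opposite strands are uncertain. The table's 36103 gene identifiers were all matched to GENCODE M21 symbols.

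Raw counts of the 4 groups were fitted in edgeR 4.0.16 (R 4.3.3) with the quasi-likelihood test, TMM scaling and filterByExpr with a minimum count of 10, which kept 16627 genes. The tissue difference was an interaction contrast with 12 residual degrees of freedom, and p-values were adjusted by the Benjamini-Hochberg method over all genes tested. A call needed a log2 difference over 1 in size together with an adjusted p below 0.05, the thresholds of the study. The common biological coefficient of variation was 0.197. The study's methods give a number of mice equal to the libraries of each group, and p-values measure the spread between these libraries.

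Genes were named by a rule. It took the 10 largest differences in each direction among called genes with at least 5 CPM in a group and no overlap between genotypes in 1 or both tissues, up to 8 opposite genes and 5 heart-led genes in each direction, up to 4 called members of each list by p (or the 2 most abundant where none was called), and genes that the study names. The comparison, the 43 pathway and 16 cell type lists and the rule were chosen with earlier results of these data known. Some genes that the rule took from lists without a call are covered by counts alone. Some genes that the rule named are not reported here. No test was run over a list. H2-Eb1, H2-DMb1, Nppa, Chrnb1, Actc1, Timp4, Cxcl11, Itgb4 and Angptl4 stand outside the rule and were named after their values were seen. DESeq2 1.42.0 and limma 3.58.1 (voom) were alternatives. The script was tested on simulated counts with known differences. Deviations of same-numbered heart and gastrocnemius libraries had weak correlations, of 0.0319 to 0.178 in WT and -0.12 to 0.0169 in Mtm1-/y. Pairs with different numbers gave -0.134 to 0.05 in WT and -0.0852 to 0.166 in Mtm1-/y. The labels do not say whether the numbers mark mice, and they were not used as pairs in the main fit. To look for duplicate libraries, a chi-square value per gene was computed from the counts of each pair of libraries of a group. It ran from 11.3 to 239, and no p-value was computed. Promoter windows are from RefSeq (GRCm38.p6).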

Additional observations from a re-analysis of the deposited data

Results flagged for a closer look

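A single library stood apart from the other 3 of its group, by Dixon's test at its 95% critical value, in 45 of 548 gene and group pairs tested among the named genes. Chance flags about 1 in 20 such groups, here 27.4. Levels are in CPM, and no explanation was tested. In WT gastrocnemius replicate 3, the flagged levels were Mtm1 (highest, 23.2), Cybb (highest, 3.14), Col8a1 (highest, 32.2), Postn (highest, 70.5), Flnc (lowest, 907), Nupr1 (highest, 15.7) and Lyz2 (highest, 28.8). In Mtm1-/y heart replicate 1, the flagged levels were Dnm2 (lowest, 71.8), Lum (highest, 100.2), Fbxo32 (lowest, 128), Fgb (highest, 5.4) and Apob (highest, 3.62). In Mtm1-/y gastrocnemius replicate 3, the flagged levels were Speg (lowest, 303), Alb (highest, 38.6), Lad1 (highest, 14.7), Dsp (highest, 135) and Fgb (highest, 2.13). In WT heart replicate 1, the flagged levels were Alb (highest, 22), Apoa2 (highest, 2.59), Scd1 (highest, 523), Ucp1 (highest, 24.5) and Fgb (highest, 1.31). In WT gastrocnemius replicate 4, the flagged levels were C130080G10Rik (lowest, 19.5), Plin1 (highest, 11.6) and Kdr (lowest, 51.6). In Mtm1-/y gastrocnemius replicate 2, the flagged levels were Adipoq (lowest, 15.8), Plin1 (lowest, 7.63) and Kdr (highest, 67.8). In WT heart replicate 4, the flagged levels were 5430419D17Rik (highest, 26.5), Ankrd1 (highest, 3213), Ifi27l2a (highest, 36.9), Loxl1 (highest, 53.7), Flnc (highest, 1206), Nfkbie (highest, 2.56) and Nppa (highest, 16774). In Mtm1-/y heart replicate 2, the flagged levels were 5430419D17Rik (highest, 5.37), Sln (highest, 274), Mrpl52 (highest, 7.15), Krt8 (highest, 1.99) and Nppa (highest, 2731). In WT gastrocnemius replicate 1, the flagged level was Slc28a2 (lowest, 9.74). In Mtm1-/y gastrocnemius replicate 1, the flagged levels were Mrpl52 (highest, 26.3) and Hspb7 (highest, 3224). In WT heart replicate 3, the flagged level was Sspn (highest, 344). In WT gastrocnemius replicate 2, the flagged level was Ttn (highest, 19437). The genotype effect itself differed between heart and gastrocnemius for 1286 genes, tested by the interaction contrast.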

How the results depend on the processing

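Of 1286 genes called, 315 higher and 971 lower, other tools and filters gave counts within 1.5 times: 1498 with DESeq2, 1294 with limma voom, 1254 with DESeq2 size factors, 1142 with no filter on low counts and 1356 with a hepatocyte score as a covariate. DESeq2 had 6341 genes at an unadjusted p under 0.05, against 5767 with edgeR. Fitting all 30 libraries together called 847 genes, 157 of them higher. A white adipocyte score as a covariate left 38 calls, 11 higher and 27 lower. Atrial scores left 548 calls (151 higher, 397 lower) when centred within tissue, and 645 (172 higher, 473 lower) when applied to the heart libraries. Library totals alone gave 2582 calls, 172 higher and 2410 lower. The adjusted p alone gave 3297, 1652 higher and 1645 lower, and a minimum of 1 CPM in both tissues gave 787, 174 higher and 613 lower. Library totals alone, the 1 CPM minimum, the hepatocyte score and the atrial score of the heart libraries were added after seeing the data. Why these settings moved the counts was not tested. Leaving out 1 library at a time gave 977 to 1639 calls, 241 to 418 higher and 735 to 1221 lower. A replicate block with genotype and number as an animal gave 1032 calls (292 higher, 740 lower). With the number alone it gave 1116 (309 higher, 807 lower). Over 151 named genes and 4227 alternative values, 3721 kept sign and side of the threshold, 453 lost the call, 19 gained it and 34 changed sign, in 11 genes. With library totals alone the difference turned to -0.22 for Arrdc2, -0.39 for Bin1, -0.10 for Cd36, -0.22 for Dag1, -0.0844 for Mdh1, -0.38 for Mstn, -0.0305 for Speg and -0.29 for Sspn. With the adipocyte score it turned to -0.17 for Cd36, 0.0266 for Dnm2, -0.0256 for Mdh1, -0.66 for Mstn, 1.02 for Scd1 and 1.99 for Ucp1. With the hepatocyte score it turned to -0.0762 for Arrdc2, 0.00849 for Dnm2 and -0.0946 for Mstn. Bin1 was -0.0255 with voom, -0.22 with the centred and -0.18 with the heart atrial score. Leaving out 1 library gave -0.0609 to 0.12 for Bin1 and -0.30 to 0.47 for Mstn, neither past the threshold. With 4 libraries a group, genes under about 1 CPM, where 3 counts are 0.0813 to 0.125 CPM, have values that counting error alone can move.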
